A study of Homo sapiens with 8 samples.

Results

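The subunits of TRiC, the chaperonin of the cytosol, are encoded by 8 genes: TCP1, CCT2, CCT3, CCT4, CCT5, CCT6A, CCT7 and CCT8. They were taken by gene symbol, as the parts of a single complex, from the 58302 rows of a gene count table, and all 8 had a row. TRiC is a barrel of stacked rings that encloses an unfolded protein and folds it with the energy of ATP. Actin and the tubulins are its best known substrates, and WD40 repeat proteins and regulators of the cell cycle also pass through it. Every ring holds each subunit in a fixed place, and the subunits differ in how strongly they bind ATP, so that a side with strong binding (TCP1, CCT2, CCT4 and CCT5) faces a side with weak binding (CCT3, CCT6A, CCT7 and CCT8). Dividing cells, colon cancer cells among them, carry much TRiC.

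The RNA came from DLD1 cells, a human colorectal cancer line, which were all transduced with a lentivirus. The OE-WT cells carried TRMT6/61A, the enzyme pair that places m1A on tRNA, in its wild-type form, and the CTRL cells carried the empty vector. The study asked which transcripts changed with the enzyme. Each group had 2 libraries, and each library was run in 2 lanes that share a column of the table. The study's methods describe biological replicates, but more per group than the 2 that the labels and the table hold, and the design text gives a culture in duplicate. The p-values measure the spread between these 2 libraries per group, which the tests drew toward the spread of other genes. They do not rest on the libraries of each gene alone.

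The libraries held between 10327498 and 12379671 counts on genes. TRMT6 was higher in OE-WT cells by 1.86 on the log2 scale and TRMT61A by 1.21 (standard errors 0.08 and 0.07, adjusted p = 8.5e-13 and 1.9e-10, edgeR's quasi-likelihood test). Of the colon epithelial markers, EPCAM, KRT8, KRT18, CDH1 and CDX2 had means above 95 CPM (counts per unit of TMM-scaled library size). The others, VIL1, CEACAM5 and LGALS4, were below 5 CPM. Of the 14 markers of fibroblasts, leukocytes and endothelium, 6 were at 0 in all 4 libraries, among them COL1A2, CD3E and CDH5, and the summed level of each list lay between 0.590 and 2.57 CPM in every library. At an adjusted p below 0.05, 2976 of 14133 genes tested differed between the groups (21.1%), 1334 of them higher (9.44%) and 1642 lower in OE-WT cells.

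Some subunit genes start next to a gene that runs the other way, and RefSeq promoter windows, from 250 bases before to 50 after each start, were at hand for 7 of the 8 genes (GRCh38.p14). CCT6A was the gene without a window. The stretches shown are parts of 3 windows that lie outside every exon of GENCODE release 44. They are given so that the letters before the RefSeq starts of genes of 1 complex can be compared. The capitals mark the ETS core (CGGAAG) and the CCAAT box (CCAAT), on either strand. The TCP1 stretch, chr6:159789704-159789811, fills the whole gap of 108 bases between the starts of TCP1 and MRPL18 and is written on the minus strand. CCT2 is shown at chr12:69585316-69585425 on the plus strand, and CCT3 at chr1:156338312-156338421 on the minus strand. The CCT3 window follows a RefSeq start that lies inside the CCT3 gene as GENCODE draws it, and the stretch also lies between exons of TSACC, on the other strand.
TCP1: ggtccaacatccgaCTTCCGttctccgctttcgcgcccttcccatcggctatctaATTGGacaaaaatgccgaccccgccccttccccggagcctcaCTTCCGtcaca
CCT2: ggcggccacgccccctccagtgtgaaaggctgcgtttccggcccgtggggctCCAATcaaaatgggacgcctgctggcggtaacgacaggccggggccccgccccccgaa
CCT3: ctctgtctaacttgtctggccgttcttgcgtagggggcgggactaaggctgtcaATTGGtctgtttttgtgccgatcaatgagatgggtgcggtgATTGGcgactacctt
Over whole windows and both strands, CGGAAG occurred for 5 of the 7 genes (TCP1, CCT2, CCT5, CCT7 and CCT8) and in 19.5% of all 35116 RefSeq windows. CCAAT occurred for 4 genes (TCP1, CCT2, CCT3 and CCT8) and in 34.6% of windows, and the SP1 box GGGCGG for 5 genes (TCP1, CCT2, CCT3, CCT7 and CCT8) and in 45.0%. Paired heat shock element units (GAANNTTC or TTCNNGAA) occurred for TCP1, CCT2 and CCT4, against 13.5% of windows. The E-box CACGTG and the TATA box TATAAA were found for 0 of the 7 genes, against 7.26% and 11.5% of windows. These letters are matches only. CCT2 and CCT4 each have more than 1 window, which raises their chance of a match.

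Per length, the subunit mRNAs were far from equal in level. With CPM divided by the length of all exons joined (RPKM), CCT4 stood first in the CTRL cells at 210.5 ± 1.02 and CCT8 last at 31.6 ± 3.29 (SD, n = 2). CCT7 came second at 114.7 ± 3.45 then CCT3 at 60.3 ± 0.203. Below them CCT2 (48.4 ± 2.25), TCP1 (47.3 ± 6.01), CCT5 (42.7 ± 2.52) and CCT6A (38.8 ± 3.74) formed a chain in which the libraries of each neighbour pair overlapped. The steps from CCT4 to CCT7, from CCT7 to CCT3, from CCT3 to CCT2 and from CCT6A to CCT8 were free of overlap. The OE-WT cells kept this order except that TCP1 (55.8 ± 2.91) and CCT2 (53.6 ± 1.27), whose libraries overlapped in both groups, changed places. Scaling by the longest coding sequence, which is of like length for all subunits (1593 to 1668 bases), left CCT4, CCT7 and CCT8 in place and moved CCT5 to the third rank in both groups. The count table holds gene sums, so which untranslated stretches were used is unknown and ranks that depend on the length chosen remain uncertain.

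All 8 subunits were higher in OE-WT than in CTRL cells, by small amounts. The log2 fold changes ran from 0.15 for CCT2 to 0.30 for CCT5, with a median of 0.22, a fold of 1.16. The median over all genes tested was 0.01. In bulk RNA, more mRNA in every cell and a larger share of cells with much of it cannot be told apart. For 6 of the 8 (TCP1, CCT3, CCT5, CCT6A, CCT7 and CCT8) the adjusted p was below 0.05, where 9.44% of all genes tested were called higher. The subunits are abundant mRNAs, each with a mean above 100 CPM in both groups, and of the 1389 genes with such a mean over all libraries 21.6% were called higher. All 8 had an unadjusted p below 0.05 in edgeR, where 21.1% of all genes tested passed even the adjusted threshold in either direction. An absolute log2 fold change above 1 with an unadjusted p below 0.05, the thresholds of the study, was seen for 0 of the 8 and for 3.15% of genes.

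On the side with strong ATP binding, TCP1 (ENSG00000120438, chromosome 6, 159778498 to 159789703, minus strand), the founding member of the family, had 283 and 263 CPM in OE-WT against 210.0 and 252 in CTRL libraries. The groups did not overlap, but the CTRL libraries lay farther apart than the gap between the groups. Its log2 fold change was 0.24 (adjusted p = 0.028, standard error 0.08, edgeR's quasi-likelihood test). CCT2 (ENSG00000166226, chromosome 12, 69585426 to 69601570, plus strand), mutated in a form of Leber congenital amaurosis, had 223 and 230.5 CPM in OE-WT against 198 and 211 in CTRL libraries. It showed the smallest difference of the 8, a log2 fold change of 0.15 (95% interval 0.01 to 0.28, adjusted p = 0.117, same test), which missed the threshold. CCT4 (ENSG00000115484, chromosome 2, 61868085 to 61888671, minus strand), the most abundant subunit mRNA, had 663 and 615 CPM in OE-WT against 567 and 570.4 in CTRL libraries. The OE-WT values were both above the CTRL values, and the log2 fold change of 0.17 (95% interval 0.03 to 0.31, adjusted p = 0.071, same test) also missed the threshold. CCT5 (ENSG00000150753, chromosome 5, 10249929 to 10266389, plus strand), mutated in a hereditary sensory neuropathy, had 305 and 287 CPM in OE-WT against 230.5 and 251 in CTRL libraries. Its libraries were separated by 36.1 CPM, and its log2 fold change of 0.30 was the largest of the 8 (adjusted p = 0.0028, standard error 0.07, same test).

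On the side with weak ATP binding, CCT3 (ENSG00000163468, chromosome 1, 156308968 to 156367873, minus strand) had 263 and 267 CPM in OE-WT against 233 and 232 in CTRL libraries. Libraries of a group were nearly level, and the log2 fold change was 0.19 (adjusted p = 0.040, standard error 0.06, edgeR's quasi-likelihood test). CCT7 (ENSG00000135624, chromosome 2, 73233420 to 73253021, plus strand) was likewise even in OE-WT libraries, with 469 and 471 CPM, against 402 and 419.9 in CTRL libraries. Its log2 fold change was 0.19 (adjusted p = 0.034, standard error 0.06, same test). CCT6A (ENSG00000146731, chromosome 7, 56051685 to 56063989, plus strand), which has a close relative in the testis, CCT6B, had 198 and 164 CPM in OE-WT against 139 and 159 in CTRL libraries. The lower OE-WT library stood 4.86 CPM above the higher CTRL library, and the log2 fold change was 0.28 (adjusted p = 0.018, standard error 0.08, same test). CCT8 (ENSG00000156261, chromosome 21, 29055805 to 29073797, minus strand), the least abundant, had 136 and 114 CPM in OE-WT against 97.9 and 113 in CTRL libraries. Here the groups all but touched, and the log2 fold change was 0.24 (adjusted p = 0.046, standard error 0.08, same test).

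The separation of the groups was therefore complete for all 8 subunits, as it was, in the same direction, for 29.9% of all genes tested and for 39.7% of those with a mean of at least 100 CPM. In the lower direction 30.2% of all genes tested were separated. When each OE-WT library was set against each CTRL library in turn, all 8 subunits were higher in the OE-WT library in all 4 pairings. The pairings were not alike in size. The median log2 ratio over the subunits was 0.32 for OE-WT library 1 against CTRL library 1 and 0.12 for OE-WT library 2 against CTRL library 2.

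Whether a subunit was called turned on the processing. Scaled to library size alone, without the TMM factors, 0 of the 8 were called by the same test (5.19% of genes called higher). An unadjusted p below 0.05 was seen for 2 of the 8, where 3184 of 14133 genes tested passed even the adjusted threshold. The lowest adjusted p was 0.068 for CCT5, and the median log2 fold change of the subunits was 0.12. That scaling moved the median of all genes to -0.08 and the share of calls that were higher from 44.8% to 23.0%. CCT5 was the 1 subunit called with DESeq2's Wald test (4.58% of genes called higher), with the filter lowered to a single count (3.23%), without OE-WT library 1 (5.78%) or without CTRL library 1 (5.52%). RLE size factors kept the 6 called (9.50%), a minimum of 10 counts in every library left 5 (9.78%), the fit without OE-WT library 2 left 4 (8.09%) and that without CTRL library 2 left 5 (8.55%). A block for the replicate number left 4 called (8.10%), without CCT3 and CCT7, whose adjusted p was then 0.129 and 0.116. Over 11 alternatives the adjusted p of CCT5 ranged from 0.00048 to 0.068, and the direction was the same for each of the 8 subunits.

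**Figure D1:**
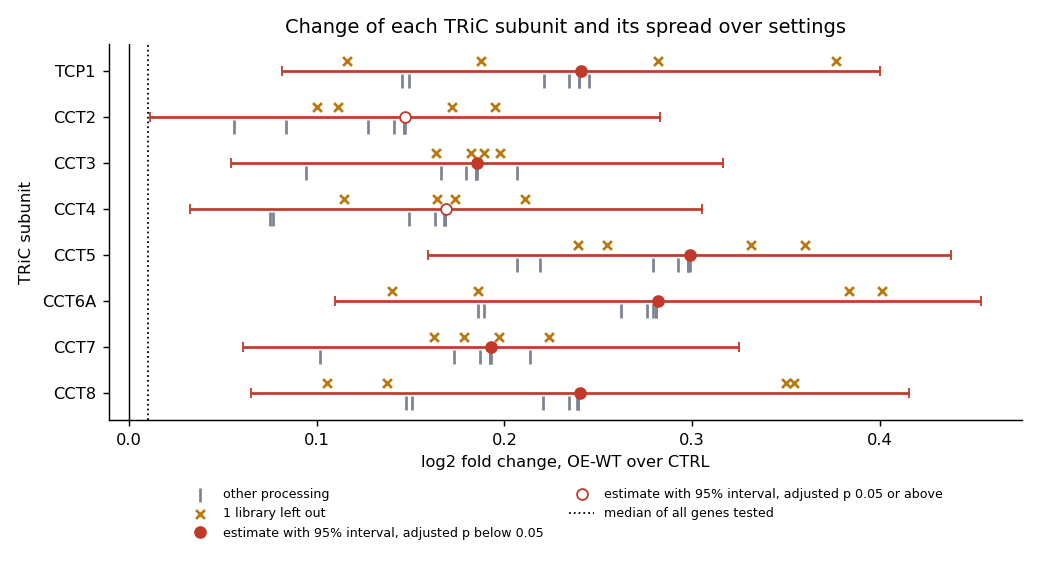
Log2 fold change of each TRiC subunit, OE-WT over CTRL, with its 95% interval (filled points have an adjusted p below 0.05), the values under other processing and with 1 library left out. The dotted line is the median of all genes tested, 0.01. Every value lies above 0, and leaving out a library moves TCP1, CCT6A and CCT8 most.

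The subunits did not vary alike within a group. TCP1, CCT6A and CCT8, whose longest transcripts have a GC content of 42.3% to 43.4%, were higher in CTRL library 2 than in CTRL library 1 by 0.26, 0.20 and 0.21 on the log2 scale. CCT4, at 42.9% GC, differed by 0.01 between the CTRL libraries in the same sense and by 0.11 between OE-WT library 1 and 2. CCT6A and CCT8 were also higher in OE-WT library 1 than in OE-WT library 2, by 0.27 and 0.26, where counting error alone gives an SD of 0.05 and 0.06. CCT3 and CCT7, at 51.3% GC, differed by -0.02 and -0.01 between the OE-WT libraries and by -0.01 and 0.06 between the CTRL libraries. Differences beyond 2 SDs of counting error were seen for 5 subunits in OE-WT cells and for 6 in CTRL cells.

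All genes tested showed a shift with GC content in the same direction. Genes of 40% to 45% GC had a median of 0.04 for OE-WT library 1 over 2, of 0.05 for CTRL library 2 over 1 and of 0.10 for OE-WT over CTRL. For genes of 50% to 55% GC these medians were -0.02, -0.03 and -0.02. With a smooth GC trend taken out of each library, CCT3, CCT5 and CCT7 were called (9.71% of genes called higher). CCT3 then had a log2 fold change of 0.21 and CCT7 of 0.21, both slightly above their values without this step. The other 6 had smaller estimates: TCP1, CCT6A and CCT8 had 0.15, 0.19 and 0.15, CCT5 had 0.22, and CCT2 and CCT4, not called either way, had 0.084 and 0.075. The median of the 8 was 0.17. What gave rise to the GC shift was not tested.

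Taken as a pool, the 8 mRNAs held 0.241% and 0.237% of all counts in OE-WT against 0.216% and 0.226% in CTRL libraries. The ratio of the group means was 1.08, and on TMM-scaled library sizes it was 1.15. The make-up of the pool was nearly constant. CCT4 gave 34.7% ± 0.505 of the summed RPKM in OE-WT and 35.4% ± 1.15 in CTRL cells (SD, n = 2), CCT7 19.2% ± 0.807 and 19.3% ± 0.137. For 7 of the 8 subunits the share overlapped between the groups. CCT5 was the exception, with 7.71% and 7.66% in the OE-WT libraries against 7.07% and 7.29% in the CTRL libraries. Divided by the same sum, 11.5% of all genes tested were higher in this way without overlap, and 51.1% were lower.

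Reads from other copies and neighbours could enter these counts. The 14 annotated pseudogenes of the subunits held 135 counts in all, 0.130% of the 103679 counts of the subunits. CCT6P1 had 18 and 17 counts in OE-WT against 31 and 25 in CTRL libraries, CCT6P3 had 5, 8, 15 and 7, and 8 pseudogenes were at 0 in every library. The testis relative CCT6B had 3, 2, 2 and 10 counts in the same order. The strand setting of the counting and its handling of reads that fit several places are not given in the sources used here. The pseudogene counts therefore cannot bound the number of misplaced reads. CCT4 overlaps the antisense lncRNA gene ENSG00000236498 (850, 779, 940 and 998 counts, log2 fold change 0.07, adjusted p = 0.542, edgeR's quasi-likelihood test). CCT5, the subunit with the largest change, overlaps the antisense lncRNA gene ENSG00000271980 at its 3′ end over 1793 bases. That gene had 597 and 573 counts in OE-WT against 500 and 580 in CTRL libraries, and a log2 fold change of 0.44 (adjusted p = 0.0013, standard error 0.09, same test). The 3′ end of TCP1 overlaps that of ACAT2, an acetyl-CoA acetyltransferase gene of the other strand, over 615 bases, and ACAT2 had a log2 fold change of 0.33 (adjusted p = 0.0020, standard error 0.07, same test). CCT3 contains TSACC on the other strand (33 counts over 4 libraries), and small RNA genes inside TCP1 and CCT6A held 1 count in all. If the counting ignored strand, reads of these overlaps could not be assigned, and their part in the values of CCT5 and TCP1 was not tested.

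For 5 subunits a gene tested here starts on the opposite strand within 1000 bases. In edgeR 0 of the 5 were called and 1 had an unadjusted p below 0.05, and DESeq2 called 0. Over all genes tested 21.1% were called in either direction in edgeR. MRPL18, a mitochondrial ribosomal protein gene that starts 109 bases from TCP1, differed by 0.06 on the log2 scale (standard error 0.08). COMMD1, which starts 53 bases from CCT4, had -0.10 (standard error 0.12). PSPH, the phosphatase of serine synthesis beside CCT6A, had 0.08 (standard error 0.08). ATPSCKMT beside CCT5 and PRADC1 beside CCT7 had 0.27 and 0.30 (standard errors 0.12 and 0.15, adjusted p = 0.123 and 0.154, same test). In 4 of the 5 pairs the estimate of the partner was below that of the subunit. The microRNA gene MIR3913-1 beside CCT2 was at 0.

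The genes that work with TRiC, tested one by one, did not all move in the direction of its subunits. Prefoldin carries unfolded actin and tubulin to TRiC. In edgeR 0 of its 6 subunits were called and 1 had an unadjusted p below 0.05, and DESeq2 called 0. Over all genes tested 21.1% were called in either direction in edgeR, and at that share short lists can hold 0 calls. PFDN5, PFDN1 and PFDN6 had log2 fold changes of -0.00, 0.14 and 0.10 (adjusted p = 0.989, 0.236 and 0.452, edgeR's quasi-likelihood test), and the list had a median of 0.06. Cochaperones of the phosducin-like family and their like bind TRiC during folding. PDCL2 was at 1 count or fewer in each library, and of the 4 others 0 were called in edgeR, by an adjusted or an unadjusted p, or in DESeq2. PDCD5, TXNDC9 and PDCL3 had log2 fold changes of 0.05, -0.23 and -0.01. In the prefoldin-like and R2TP complex, which assembles large machines, 1 of 7 was called, where 21.1% of all genes tested were called in either direction, the ATPase RUVBL2 (0.19, standard error 0.07, adjusted p = 0.044, same test). That call held in 3 of 11 alternatives and was lost with any library left out but kept its direction (adjusted p 0.0014 to 0.425 over the alternatives). Its partner RUVBL1 had 0.09, and PIH1D1 and UXT had -0.03 and 0.00. RPAP3 had the largest estimate of the list, 0.75, and was not called (adjusted p = 0.066). The tubulin cofactors take tubulin after TRiC. All 4 that were tested had estimates below 0, with a median of -0.09, and 0 were called in edgeR, by an adjusted or an unadjusted p, or in DESeq2. TBCA, TBCB and TBCD had -0.08, -0.01 and -0.09, and TBCE had no row under its symbol.

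Among 22 substrates, 4 were called higher and 1 lower, against 9.44% and 11.6% of all genes tested. Of the 1389 genes with a mean of at least 100 CPM, 300 were called higher (21.6%) and 348 lower. ACTB, TUBA1B and TUBB are such genes. The median was 0.08. ACTB rose from 4019 ± 35.1 to 4732 ± 59.9 CPM, TUBA1B from 1771 ± 14.6 to 2270.5 ± 67.0 and TUBB from 1403 ± 14.2 to 1658 ± 52.6 (SD, n = 2). Their log2 fold changes were 0.24, 0.36 and 0.24 (adjusted p = 0.022, 0.00068 and 0.013, same test). STAT3 (0.31, adjusted p = 0.0031) was the other gene called higher. FZR1, an activator of the anaphase-promoting complex with WD40 repeats, was lower by -0.36 (adjusted p = 0.0024). ACTG1, TUBB4B and TUBA1C, with log2 fold changes of 0.07, 0.14 and 0.18, were not called (adjusted p = 0.529, 0.127 and 0.0504), nor was TUBA1A, with -0.34 (adjusted p = 0.138). TUBA1B was called in all 11 alternatives. ACTB was lost without OE-WT library 1 or 2 or CTRL library 1 (adjusted p = 0.130, 0.188 and 0.079), and TUBB without OE-WT library 2 (0.142). With library size only ACTB, TUBB and STAT3 were lost (0.346, 0.269 and 0.053), and with the replicate block ACTB and TUBB (0.099 and 0.059). FZR1 was lost with the GC trend removed, where its log2 fold change was -0.18.

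The chaperonin of mitochondria is built otherwise but folds proteins in a like chamber. HSPD1 had 338 CPM on average in OE-WT and 249 in CTRL cells, and its lid HSPE1 had 137 and 111. Both were called, with log2 fold changes of 0.44 and 0.31 (standard errors 0.08 and 0.07, adjusted p = 0.00038 and 0.0019, same test). HSPD1 was called in all 11 alternatives. HSPE1 was lost with the GC trend removed, where its log2 fold change was 0.18 (adjusted p = 0.064), and with library size only (0.053). Of the chaperonin-like genes, MKKS and BBS10 had 0.26 and 0.37 and were not called (1 had an unadjusted p below 0.05, and DESeq2 called 0), CCT6B and BBS12 had too few counts for a test, and CCT8L2 was at 0. In the HSP70 and HSP90 system, whose members also hand substrates to TRiC, 4 of 12 were called higher and 3 lower, against 9.44% and 11.6% of all genes tested. Among genes with a mean of at least 100 CPM, as HSP90AA1, HSP90AB1 and STIP1 have, 21.6% were called higher. HSP90AA1 (0.45), HSP90AB1 (0.37), HSPA4 (0.57) and the adaptor STIP1 (0.33) rose, and HSPA1A (-0.96), HSPA1B (-0.75) and HSPH1 (-0.35) fell. HSP90AA1, HSP90AB1, STIP1 and HSPA1B were called in all 11 alternatives. HSPA4 was lost with DESeq2 (adjusted p = 0.171), and its log2 fold change was 0.34 without CTRL library 1 and 0.83 without CTRL library 2. HSPA1A rested on 17 and 12 counts in OE-WT against 33 and 38 in CTRL libraries, and DESeq2 gave it no adjusted p. Its call was lost with the GC trend removed (adjusted p = 0.074, edgeR's quasi-likelihood test). It was also lost without OE-WT library 2, CTRL library 1 or CTRL library 2, where its log2 fold change was -0.73, -1.09 and -0.83. HSPH1 was lost without OE-WT library 2 or CTRL library 2 (0.233 and 0.174), with DESeq2 (0.212), with the replicate block (0.0501) and with the filter lowered to a single count (0.071). The 2 HSPA1 genes are near-identical copies, so their split is uncertain. HSPA8, DNAJB1 and BAG3 had -0.12, -0.13 and 0.14 and were not called. HSF1, HSF2, ZNF143 and MYC, transcription factors of TRiC genes, had log2 fold changes of -0.14, -0.28, 0.07 and 0.03. In edgeR 0 of the 4 were called, by an adjusted or an unadjusted p, and DESeq2 called 0. Over all genes tested 21.1% were called in either direction in edgeR.

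Among 8226 other genes with a mean of at least 100 counts, 5 had a profile over the 4 libraries closest to the mean profile of the subunits, by the root mean square distance of centred log2 CPM. They were EDEM1, of endoplasmic reticulum degradation, YWHAB, a 14-3-3 protein, NSA2, of ribosome assembly, STX18, of vesicle fusion, and DHX15, an RNA helicase of splicing. Their distances ran from 0.0072 to 0.010. The subunits themselves lay 0.040 (CCT5) to 0.075 (CCT6A) from their own mean. The 5 genes were picked as the closest, so their smaller distances do not show how alike the subunits are. The likeness rests on 4 libraries and is a description.

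The study reported more m1A in OE-WT cells on tRNA-Glu-CTC, tRNA-Asp-GTC, tRNA-Ala-TGC and tRNA-Leu-CAA, which read the codons GAG, GAC, GCA and UUG. It built reporters for each of these codons, described results for GAG and GAC, and replaced GAG and GAC in ARG2. Across transcripts, it reported no simple linear relation of GAG and GAC frequency to the change in translation efficiency. In the coding sequences of the subunits GAG ranged from 1.82% of codons in CCT8 to 5.16% in CCT7, with a median of 2.68% against 3.84% over 11620 genes tested. GAC ranged from 1.46% in CCT8 to 2.75% in CCT3, with a median of 2.22% against 2.43%. GAG was above the median of those genes in 3 subunits and GAC in 2. GCA had a median of 2.98% against 1.53% and UUG one of 1.64% against 1.22%, and each was above the median of those genes in 7 of the 8 subunits. RNA counts say nothing of how these codons were translated.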

How the data were processed

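RNA sequencing of OE-WT and CTRL DLD1 cells was analysed, with 2 libraries per group. The authors aligned the reads to GRCh38 with HISAT2, counted them per gene and deposited raw counts. The study's methods name HTSeq as counter and removal of ribosomal RNA. The submitters' processing notes name HISAT2 2.2.1, featureCounts 2.0.0 and DESeq2 1.34.0, and the labels name poly(A) selection with a stranded kit. The design text lists TRMT6 and TRMT61A cells apart, where the labels give 1 group of TRMT6/61A cells, which was followed. The annotation release is not given in the sources used here. Library totals ran from 10327498 to 12379671 counts. Cells were washed with cycloheximide.

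GENCODE release 44 (GRCh38) gave symbols and lengths for 57532 of 58302 identifiers. edgeR 4.0.16 in R 4.3.3 (filter by group, minimum count 10, TMM, quasi-likelihood test without replicate block, Benjamini-Hochberg over 14133 genes) gave the calls. An exact permutation test of 2 against 2 libraries cannot go below 0.333. CPM use TMM-scaled library sizes, and RPKM divide them by the joined exon length. In simulated counts for OE-WT over CTRL, the test recovered 31 of 100 genes changed by 0.4 on the log2 scale and 75 of 100 changed by 1. The simulation changed 200 of 14133 genes, drawn at all levels of abundance, where 2976 were called in the data. It does not give the share recovered among abundant mRNAs such as those of the subunits.

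Alternatives were DESeq2 1.42.0, scaling by RLE or by library size, other filters, a replicate block, a GC trend removed per library (lowess, span 0.3), each library left out, other lengths and denominators. The members and lists were chosen with earlier results of these data known, and the motifs after the windows had been scanned. Named are the 8 subunits, TRMT6 and TRMT61A, genes of each list with an adjusted p below 0.05 and up to 3 others of highest mean CPM, divergent and overlapping neighbours, pseudogenes and the 5 genes most alike. Other list members named were chosen after their values were seen. A gene of the substrate list is not reported here and was left out of its counts. Ribosome profiling and tRNA sequencing were not analysed here.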

Additional observations from a re-analysis of the deposited data

How the results depend on the processing

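With 2 libraries per group, the size of the shifts (log2 0.15 to 0.30) is near what this design can call, and small settings move calls. With library size only, the log2 fold changes were 0.15 (TCP1), 0.094 (CCT3), 0.21 (CCT5), 0.19 (CCT6A), 0.10 (CCT7) and 0.15 (CCT8), 0 subunits were called and their median was 0.12. With every gene of at least 1 count they were 0.22 (TCP1), 0.17 (CCT3), 0.26 (CCT6A), 0.17 (CCT7) and 0.22 (CCT8), with 1 subunit called. With DESeq2 they were 0.24 (TCP1), 0.18 (CCT3), 0.28 (CCT6A), 0.19 (CCT7) and 0.24 (CCT8), with 1 called. With the GC trend removed TCP1 (0.15), CCT6A (0.19) and CCT8 (0.15) were lost and 3 subunits were called. With at least 10 counts in every library CCT8 (0.23) was lost, at an adjusted p of 0.05002. RLE size factors kept the same 6 called. The causes were not tested.

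With a library left out, the remaining one was assumed to vary like the other group, where values alone had been planned. The log2 fold changes then ranged from 0.12 to 0.38 (TCP1), 0.16 to 0.20 (CCT3), 0.24 to 0.36 (CCT5), 0.14 to 0.40 (CCT6A), 0.16 to 0.22 (CCT7) and 0.11 to 0.35 (CCT8), and 1 to 5 subunits were called: 1 without OE-WT library 1 or CTRL library 1, 4 without OE-WT library 2 and 5 without CTRL library 2. Of all genes, 1923 to 2721 were called, against 2976.

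Whether the replicate numbers pair the libraries is not known. Across genes, distances from the group mean gave a correlation of -0.09 between OE-WT and CTRL libraries that share a number. Genes of 40% to 45% GC were shifted up in OE-WT library 1 and in CTRL library 2. That shift enters the correlation, which therefore cannot decide whether the libraries are paired. With the replicate block CCT3 (0.19) and CCT7 (0.19) were lost, 4 subunits were called and 2658 genes in all.

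Genes past the thresholds of the study numbered 445, and 738 with every gene of at least 1 count, 216 with at least 10 counts in every library and 288 with DESeq2, which called 1377 genes at an adjusted p below 0.05. The ratio of the summed share of counts was 1.08, and 1.15 on TMM-scaled sizes. The CCT5 share of the pool was higher in OE-WT cells by 0.51 percentage points, and by 0.73 with coding length. No alternative reversed a direction among the 8 subunits.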
